A study of Medicago truncatula with 6 samples.

Results

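The phosphate, ammonium and proton transporters of the arbuscule were followed in roots of the legume Medicago truncatula that a mycorrhizal fungus had colonised. The members are 5 of the 54762 loci in the deposited count table, taken by locus: the phosphate transporter genes PT4 (MTR_1g028600) and PT8 (MTR_5g068140), the ammonium transporter genes AMT2;3 (MTR_8g074750) and AMT2;4 (MTR_7g115050), and the proton pump gene HA1 (MTR_8g006790). The rule names them by their role at the arbuscule. RNA sequencing covered 3 libraries from roots of the Mtphr2 mutant and 3 from roots of the wild-type line R108, all colonised by a mycorrhizal fungus. The labels give R108 as the line of all 6 libraries. No source used here names the Mtphr2 allele or locus, the fungus, the phosphate supply or the plants' age, so the genotype could not be checked by the level of the mutated gene. The labels call the replicates of a genotype technical, and p-values may therefore measure the spread between these libraries only.

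Arbuscules are branched fungal structures inside cortical root cells, wrapped in a plant membrane, the periarbuscular membrane. The fungus releases phosphate and nitrogen there, and plant transporters in that membrane take them up. A plasma membrane proton pump provides the proton gradient that drives phosphate uptake. Transcription factors of the PHR family direct the plant's response to phosphate starvation. The series set out to compare transcript levels between Mtphr2 and wild-type roots under mycorrhiza.

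Estimated counts summed to 19809184 to 21477169 per Mtphr2 library and to 18199040 to 19396774 per R108 library. Levels are given as CPM, counts relative to library totals that were scaled by TMM. A value after ± is the SD of the n = 3 libraries of a genotype, and fitted fold changes carry a standard error (SE). In bulk roots, fewer arbuscule-containing cells and less RNA per such cell cannot be told apart. Genes of the Casparian strip, a structure of the root endodermis, summed to 142 to 177 CPM in Mtphr2 libraries, against 157, 109 and 329 CPM in R108 replicates 1 to 3. All 7 such genes were tested, 6 had negative fitted log2 fold changes, and 0 had an adjusted p under 0.05 by edgeR or DESeq2 or an unadjusted p under 0.05. Leghemoglobin genes, which mark nodules, summed to 1.96, 3.64 and 2.24 CPM in Mtphr2 and to 5.43, 11.6 and 4.12 CPM in R108, and 7 of the 12 had no count in any library. Most of the sum came from 1 gene, MTR_1g090820, the only one of the 12 that was tested, at 1.96, 2.95 and 1.95 CPM in Mtphr2 and 5.21, 9.999 and 3.14 CPM in R108 (adjusted p = 0.249 by edgeR). Its level was lower in every Mtphr2 library than in every R108 library, as for 10.6% of tested loci. The part of nodule tissue in the results below was not tested.

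All 5 members had lower mean levels in Mtphr2 than in R108, as did 47.7% of tested loci by their fitted levels, and the members' fitted levels were 4.26-fold (AMT2;4) to 5.99-fold (AMT2;3) lower. None had an adjusted p under 0.05 in the quasi-likelihood test of edgeR, with p adjusted over all 22663 tested loci by the Benjamini-Hochberg method; adjusted p ran from 0.266 to 0.311. In the same test 0.0309% of tested loci were called lower in Mtphr2 (7 loci) and 0.0485% higher (11 loci). With the replicate number as a term in edgeR, 0.221% were called lower (50 loci). No member was among them, with adjusted p of 0.0650 (AMT2;4) to 0.209 (AMT2;3). Nor was any member among the 0.137% called in either direction by limma-voom. An unadjusted p under 0.05 in the lower direction was found for 4 of the 5 members, and for 8.41% of tested loci. The median log2 fold change was -2.35 over the 5 members and 0.02 over all tested loci, and all 5 members were at least 4-fold lower, as were 1.93% of tested loci.

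The transporter that takes up phosphate released by the fungus in Medicago, PT4, was the most abundant member. It had 402.6, 38.3 and 89.0 CPM in Mtphr2 replicates 1, 2 and 3, against 1705, 819 and 404.2 CPM in R108 replicates 1, 2 and 3. The groups did not overlap, but the highest Mtphr2 library lay just under the lowest R108 library. Of all tested loci, 10.6% had every Mtphr2 library below every R108 library. The means were 177 ± 197 CPM in Mtphr2 and 976 ± 664 CPM in R108, and in Mtphr2 the SD exceeded the mean. The log2 fold change was -2.47 (SE 0.954, adjusted p = 0.284 by edgeR). By rank of counts among all loci, PT4 stood at 259, 6066 and 2554 in Mtphr2 replicates 1 to 3 and at 26, 75 and 265 in R108 replicates 1 to 3.

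PT8, a related phosphate transporter of the same membrane, was expressed at a few percent of the level of PT4. It had 7.78, 1.61 and 4.81 CPM in Mtphr2 replicates 1 to 3 and 44.4, 15.6 and 7.31 CPM in R108 replicates 1 to 3. Here the groups overlapped, since Mtphr2 replicate 1 was above R108 replicate 3. The log2 fold change was -2.25 (SE 0.798, adjusted p = 0.266 by edgeR). DESeq2 called PT8 lower (adjusted p = 0.0317), and it was the only member that any tool called, in a comparison where DESeq2 called 2.47% of loci lower. On the counts themselves, the library with the fewest reads for PT8, Mtphr2 replicate 2, had 35 (exact Poisson 95% interval 24.4 to 48.7, which covers counting error only).

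The ammonium transporters were less abundant. AMT2;3, which Medicago needs to keep its arbuscules alive in plants that lack PT4 under low nitrogen, had 0.853, 0.0921 and 0.381 CPM in Mtphr2 replicates 1 to 3 and 5.43, 2.10 and 0.433 CPM in R108 replicates 1 to 3. These values rest on 17, 2 and 8 counts in Mtphr2 and on 100, 41 and 8 counts in R108. Mtphr2 replicate 3 and R108 replicate 3 thus held the same count, and a difference between that pair was not detectable at this depth. The exact Poisson 95% interval of the 2 counts in Mtphr2 replicate 2 was 0.242 to 7.22 counts. The log2 fold change was -2.58 (SE 1.04, adjusted p = 0.294 by edgeR), the lowest of the 5 and the one with the largest SE.

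AMT2;4, another ammonium transporter of mycorrhizal roots, had 7.43, 2.49 and 1.57 CPM in Mtphr2 replicates 1 to 3 and 28.5, 16.1 and 4.17 CPM in R108 replicates 1 to 3. The groups overlapped through Mtphr2 replicate 1 and R108 replicate 3. It was the only member whose lowest value came from Mtphr2 replicate 3, the other 4 being lowest in Mtphr2 replicate 2. The log2 fold change was -2.09 (SE 0.823, adjusted p = 0.288 by edgeR).

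HA1 encodes the proton pump that Medicago needs for phosphate uptake at the arbuscule. It had 187, 23.8 and 41.3 CPM in Mtphr2 replicates 1 to 3 and 856, 306 and 121 CPM in R108 replicates 1 to 3. Mtphr2 replicate 1 again lay above R108 replicate 3. The log2 fold change was -2.35 (SE 0.994, adjusted p = 0.311 by edgeR), and its unadjusted p was 0.0534, the highest of the members.

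**Figure D1:**
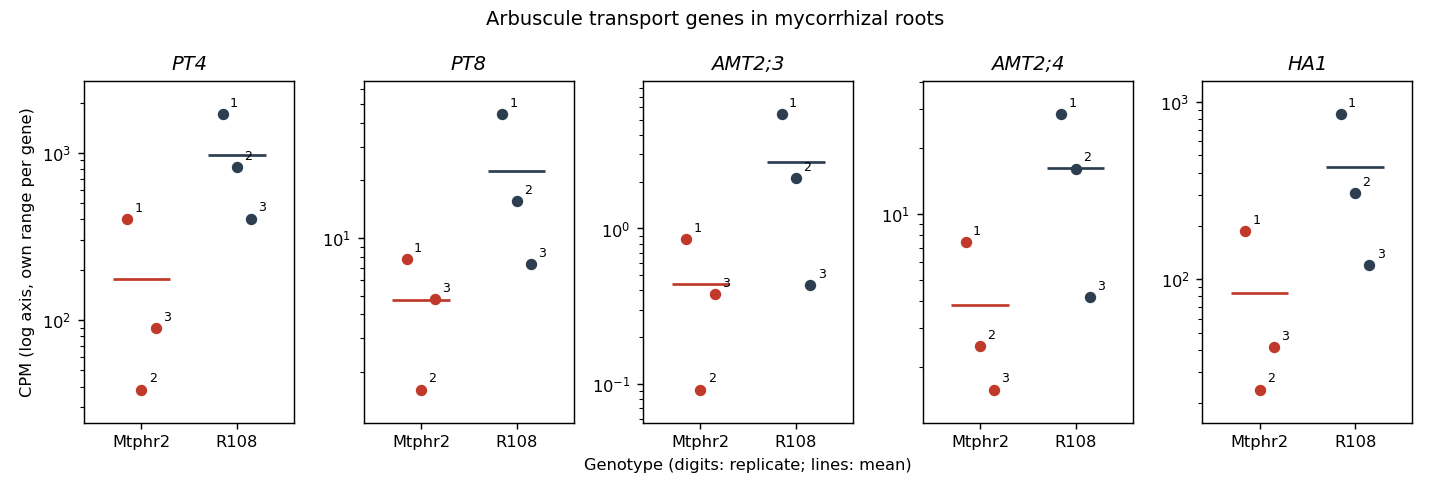
CPM of PT4, PT8, AMT2;3, AMT2;4 and HA1 in each library, on log axes with a range of their own; digits give the replicate and lines the mean of 3 libraries, with Mtphr2 left of R108. The PT4 groups nearly meet at 402.6 CPM in Mtphr2 and 404.2 CPM in R108, and the groups of the other 4 genes overlap.

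Libraries of the same genotype were spread over folds of the size of the fitted differences between genotypes. Among Mtphr2 libraries the highest level was 10.5 times the lowest for PT4, 4.83 times for PT8, 9.27 times for AMT2;3, 4.73 times for AMT2;4 and 7.85 times for HA1. Among R108 libraries these ranges were 4.22, 6.07, 12.5, 6.84 and 7.09 times in the same order. In each genotype the same library was highest for all 5 members: replicate 1. In R108 all 5 were lowest in replicate 3. Without Mtphr2 replicate 1 the log2 fold changes of the members lay between -3.94 (PT4) and -2.80 (PT8), and without R108 replicate 1 between -1.79 (PT4) and -1.28 (PT8). The tagwise biological coefficient of variation fitted by edgeR was 0.637 to 0.811 for the members, against a common value of 0.275 over all loci.

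Libraries carry the numbers 1 to 3 in both genotypes. Between libraries with the same number, PT4 differed by a log2 CPM of -2.08, -4.41 and -2.18 for numbers 1, 2 and 3. The differences were -2.50, -3.20 and -0.59 for PT8 and -2.53, -3.51 and -0.15 for AMT2;3. They were -1.93, -2.65 and -1.35 for AMT2;4 and -2.19, -3.68 and -1.54 for HA1. All 15 differences were below 0. Of all tested loci, 22.4% had all of their same-number differences below 0. For every member the difference was most negative at number 2. The log2 values carry a prior count of 2, which shrinks differences at low counts: without it, AMT2;3 was 22.8-fold lower in Mtphr2 at number 2, where it rests on 2 counts in Mtphr2 and 41 in R108, and PT4 was 21.4-fold lower.

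Relative to each other, the members were set against PT4 within each library. This takes the library total out of the comparison, but not the counting error of low counts. Per kilobase of deposited transcript length, HA1 stood at 28.8%, 38.6% and 28.8% of the level of PT4 in Mtphr2 replicates 1 to 3 and at 31.2%, 23.2% and 18.5% in R108 replicates 1 to 3. PT8 stood at 2.08%, 4.53% and 5.81% in Mtphr2 and at 2.80%, 2.06% and 1.95% in R108. AMT2;4 was at 2.12%, 7.45% and 2.03% in Mtphr2 and at 1.92%, 2.26% and 1.18% in R108. AMT2;3, the lowest, was at 0.264%, 0.299% and 0.533% in Mtphr2 and at 0.397%, 0.320% and 0.134% in R108. The order of levels per length was thus PT4 above HA1 in every library, with PT8 and AMT2;4 below HA1 and AMT2;3 last. The order of PT8 and AMT2;4 varied between libraries, and AMT2;4 was the higher of the pair in Mtphr2 replicates 1 and 2 and in R108 replicate 2.

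All 4 ratios to PT4 had higher means in Mtphr2. The log2 ratio of PT8 to PT4 was -4.78 ± 0.789 in Mtphr2 and -5.58 ± 0.276 in R108, a difference of 0.80. The difference was 0.83 for AMT2;3, 0.92 for AMT2;4 and 0.42 for HA1. These values carry the prior count of 2. With a prior count of 0.5 the differences were 0.77 for PT8, 0.56 for AMT2;3, 0.89 for AMT2;4 and 0.42 for HA1. In the edgeR fits the log2 fold change was lower for AMT2;3 (-2.58) than for PT4 (-2.47). In two-sided exact permutation tests, p was 0.2 for PT8 and 0.3 for each of the other ratios, and 0.3 for each of the 4 after Benjamini-Hochberg adjustment. With 3 libraries against 3, the smallest p these tests allow is 0.1, so no ratio could fall under 0.05. Between same-numbered libraries, the log2 ratio with its prior count of 2 was higher in Mtphr2 in 3 of 3 pairs for AMT2;4. It was higher in 2 of 3 pairs for each of the others. For AMT2;3 the direction at number 2 depended on the prior count. Without it, AMT2;3 per length was at 0.299% of PT4 in Mtphr2 replicate 2 and at 0.320% in R108 replicate 2. The smallest p of a paired exact permutation test over 3 pairs is 0.25, so pairing cannot bring a ratio under 0.05.

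**Figure D2:**
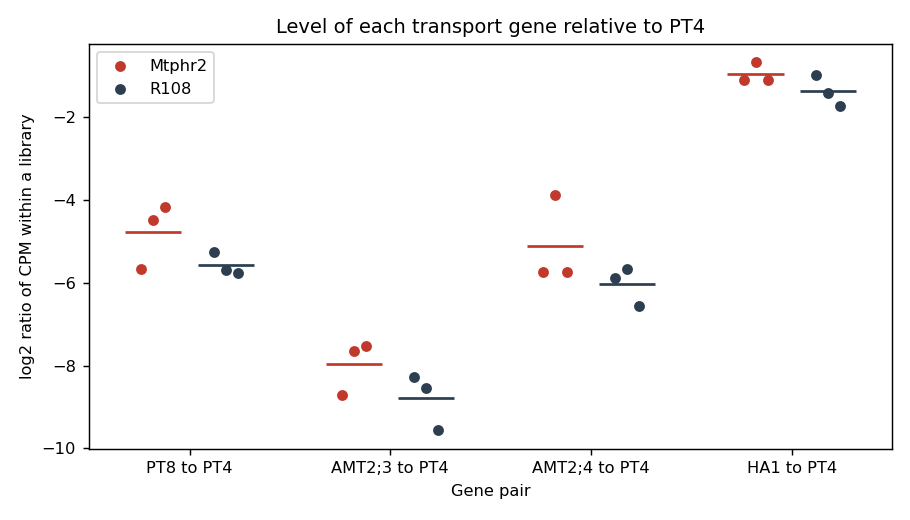
The log2 ratio of each member's CPM to that of PT4 in the same library, with Mtphr2 left of R108 in each pair and lines at the mean of 3 libraries. Means are higher in Mtphr2 for all 4 pairs, by 0.42 for HA1 to 0.92 for AMT2;4, and the points of the genotypes overlap.

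Other phosphate transporters had fitted levels in either direction. Besides these, the words used for this family matched 14 loci, of which 3 are glycerol-3-phosphate transporters and 11 are inorganic phosphate transporters of the PHT1 kind, by their closest Swiss-Prot entries. Of those 11, 8 were tested, with 4 lower and 4 higher fitted levels in Mtphr2 and a median log2 fold change of -0.21. Of all 14 loci, 11 were tested by edgeR and none of them passed. Among these tested loci 1 had an unadjusted p under 0.05 (in the higher direction, as 8.01% of tested loci), and DESeq2 called 0. By mean CPM over the 6 libraries, the most abundant PHT1 gene after PT4 was MTR_1g074930. It had 355, 229.6 and 157 CPM in Mtphr2 replicates 1 to 3 and 701, 336 and 228.3 CPM in R108 replicates 1 to 3 (log2 fold change -0.77, adjusted p = 0.460 by edgeR). In Mtphr2 alone its mean of 247 CPM was above the 177 CPM of PT4. MTR_3g082700, given because it is the 1 with an unadjusted p under 0.05, had 14.96, 7.69 and 7.76 CPM in Mtphr2 and 7.002, 3.44 and 2.44 CPM in R108. Its groups did not overlap in the higher direction, as for 11.6% of tested loci (log2 fold change 1.24, adjusted p = 0.276 by edgeR). The glycerol-3-phosphate transporter gene MTR_0004s0650, the most abundant locus that the words matched, had 1044 ± 125 CPM in Mtphr2 and 883 ± 36.3 CPM in R108. Counts of MTR_1g043200, MTR_1g043220 and MTR_1g043290 were not whole, as happens when near copies share reads, and their values are uncertain.

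PT4 made up a smaller share of the PHT1 transcripts in Mtphr2 roots than in R108 roots. Per length, it took 58.2%, 12.6% and 33.8% of the summed level of the 13 PHT1 loci in Mtphr2 replicates 1 to 3, against 78.1%, 74.0% and 66.8% in R108 replicates 1 to 3. No Mtphr2 library reached the lowest R108 library. The summed level itself was 384, 169 and 146 CPM per kilobase in Mtphr2 and 1213, 614 and 336 CPM per kilobase in R108. This share, and those below for the other families, was defined after the values were seen and was not tested.

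Ammonium transporters too had fitted levels in either direction. The words for this family matched 10 loci besides AMT2;3 and AMT2;4, of which 6 were tested, with 2 lower and 4 higher fitted levels in Mtphr2. The 4 include MTR_2g010450, whose closest Swiss-Prot entry is a transcription factor. AMT2;5 (MTR_1g036410), the Medicago gene of that name in Swiss-Prot, had 55.02, 11.5 and 16.3 CPM in Mtphr2 replicates 1 to 3 and 255, 124 and 35.7 CPM in R108 replicates 1 to 3. Its fitted level was 5.01-fold lower (log2 fold change -2.32, SE 0.861, adjusted p = 0.274 by edgeR), and per length it was well above AMT2;3 and AMT2;4 in all 6 libraries. The gene closest to Arabidopsis AMT1;1, MTR_1g045550, a high-affinity root uptake transporter in that species, had 157, 136 and 117 CPM in Mtphr2 and 86.1, 86.8 and 67.7 CPM in R108. There every Mtphr2 library was above every R108 library, as for 11.6% of tested loci. The means were 137 ± 19.9 CPM in Mtphr2 and 80.2 ± 10.9 CPM in R108 (log2 fold change 0.77, SE 0.150, adjusted p = 0.150 by edgeR), and DESeq2 called it higher (adjusted p = 0.00211), as it did 2.42% of loci.

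No ammonium transporter passed edgeR's test. Of the 6 tested loci outside the members, 2 had an unadjusted p under 0.05 in the lower direction, as did 8.41% of all tested loci, and 3 in the higher direction, as did 8.01%. The 3 include MTR_2g010450, described below. The examples that follow were picked after their values were seen. MTR_7g069640, closest to Arabidopsis AMT2, had 30.9, 24.9 and 18.5 CPM in Mtphr2 and 16.4, 15.998 and 13.3 CPM in R108 (adjusted p = 0.230 by edgeR). MTR_8g095040, closest to rice AMT3;1, had 2.71, 1.70 and 0.667 CPM in Mtphr2 and 8.41, 4.36 and 2.44 CPM in R108 (adjusted p = 0.289 by edgeR). MTR_2g010450 is annotated as a symbiotic ammonium transporter, but its closest Swiss-Prot entry is the transcription factor bHLH25. It had 9.59, 6.9995 and 7.90 CPM in Mtphr2 and 4.94, 3.999 and 4.33 CPM in R108, and DESeq2 called it higher (adjusted p = 0.0133). Leaving that gene out, AMT2;3, AMT2;4 and AMT2;5 together took 30.2%, 10.1% and 15.1% of the summed ammonium transporter level per length in Mtphr2 replicates 1 to 3, against 76.4%, 62.7% and 39.4% in R108 replicates 1 to 3. Most of the joint level of these 3 genes came from AMT2;5, which is no member. In R108 replicate 1 it had 176.5 CPM per kilobase, against 3.75 for AMT2;3 and 18.2 for AMT2;4. In Mtphr2 replicate 1 these levels were 38.0, 0.590 and 4.74. The joint shares did not overlap, while the summed levels of the family did, at 144, 94.4 and 83.01 CPM per kilobase in Mtphr2 and 259.9, 155 and 70.2 CPM per kilobase in R108. By the levels of single loci, 10.6% of tested loci had every Mtphr2 library below every R108 library.

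The other plasma membrane proton pumps had fitted log2 fold changes of -1.11 to 0.38. Of 17 other loci in this family 9 were tested, with 4 lower and 5 higher fitted levels and a median log2 fold change of 0.06. MTR_4g127710, closest to PMA4 of tobacco's relative Nicotiana plumbaginifolia and the most abundant pump, had 1328 ± 90.9 CPM in Mtphr2 and 1240 ± 146 CPM in R108 (adjusted p = 0.741 by edgeR). MTR_3g108800 had 255 ± 67.9 CPM in Mtphr2 and 245 ± 35.1 CPM in R108 (adjusted p = 0.917 by edgeR). None passed edgeR's test. An unadjusted p under 0.05 was found for 1 of the 9, MTR_1g009760, which is near the 8.41% of all tested loci with such a p in the lower direction. That gene had 3.61, 2.53 and 3.38 CPM in Mtphr2 and 8.90, 6.36 and 5.31 CPM in R108, and DESeq2 called it lower (adjusted p = 0.0156), as it did 2.47% of loci. HA1 took 9.05%, 1.29% and 2.20% of the summed pump level per length in Mtphr2 replicates 1 to 3 and 31.3%, 15.8% and 6.41% in R108 replicates 1 to 3, with an overlap between Mtphr2 replicate 1 and R108 replicate 3. The summed pump level was 634 to 712 CPM per kilobase in Mtphr2 and 649 to 943 CPM per kilobase in R108.

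**Figure D3:**
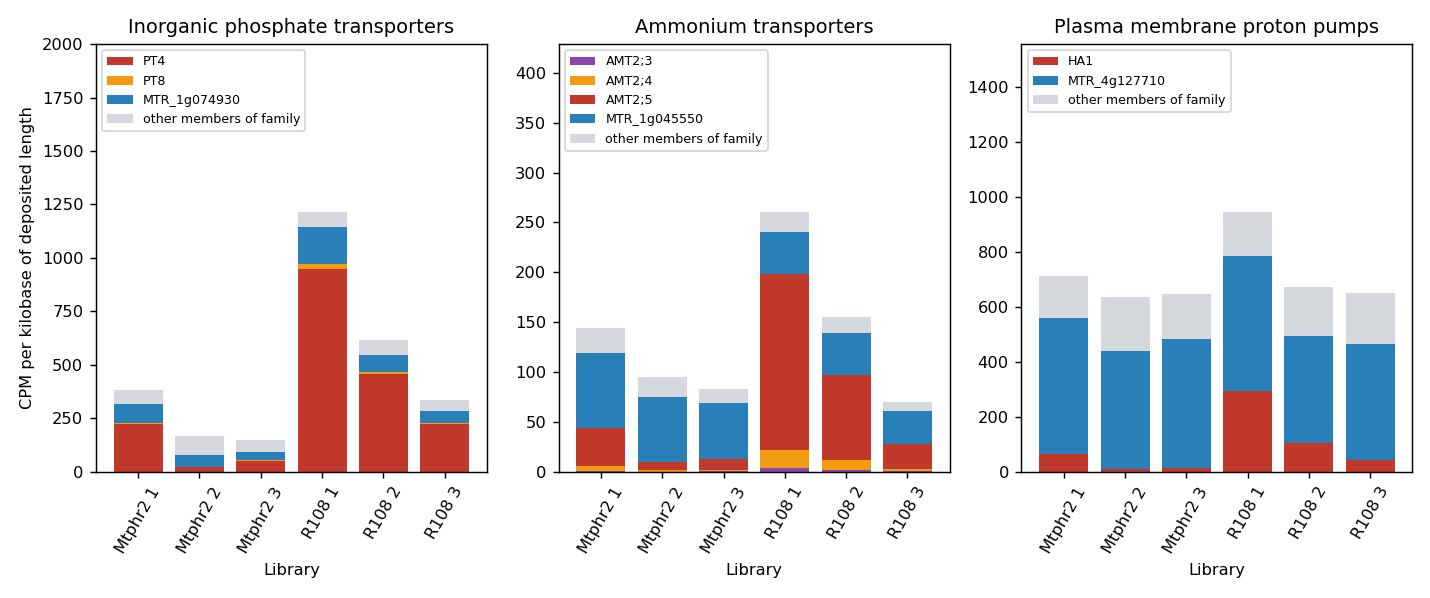
Summed CPM per kilobase of deposited length for the inorganic phosphate transporters, the ammonium transporters and the plasma membrane proton pumps in each library, Mtphr2 on the left, with members and the most abundant relatives in colour. PT4 takes 12.6% of its family in Mtphr2 replicate 2 and 78.1% in R108 replicate 1, while MTR_4g127710 is the largest pump in every library.

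Other genes that mark arbuscule-containing cells were lower in the same libraries as the members. The 11 markers besides the members include RAM1, RAD1 and MYB1, which are transcription factors of the arbuscule. STR and STR2 are transporters of its membrane, and RAM2 and FatM make lipid for the fungus. All 11 had lower fitted levels in Mtphr2, as did 47.7% of tested loci, with a median log2 fold change of -2.47 and adjusted p of 0.206 to 0.320 by edgeR. DESeq2 called 2 of them, RAD1 (adjusted p = 0.00438) and SWEET1b (adjusted p = 0.00607), in a test that called 2.47% of loci lower. With the replicate block edgeR called 1, SWEET1b (adjusted p = 0.0345), where it called 0.221% of loci lower. Their mean log2 CPM was 4.97, 2.52 and 3.18 in Mtphr2 replicates 1 to 3 and 7.24, 6.13 and 4.80 in R108 replicates 1 to 3. The mean over the 5 members was 4.40, 1.92 and 2.77 in Mtphr2 and 6.65, 5.41 and 3.93 in R108, so the libraries stood in the same order by either set. What part the amount of arbuscules has in the levels of the transporters was not tested.

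**Figure D4:**
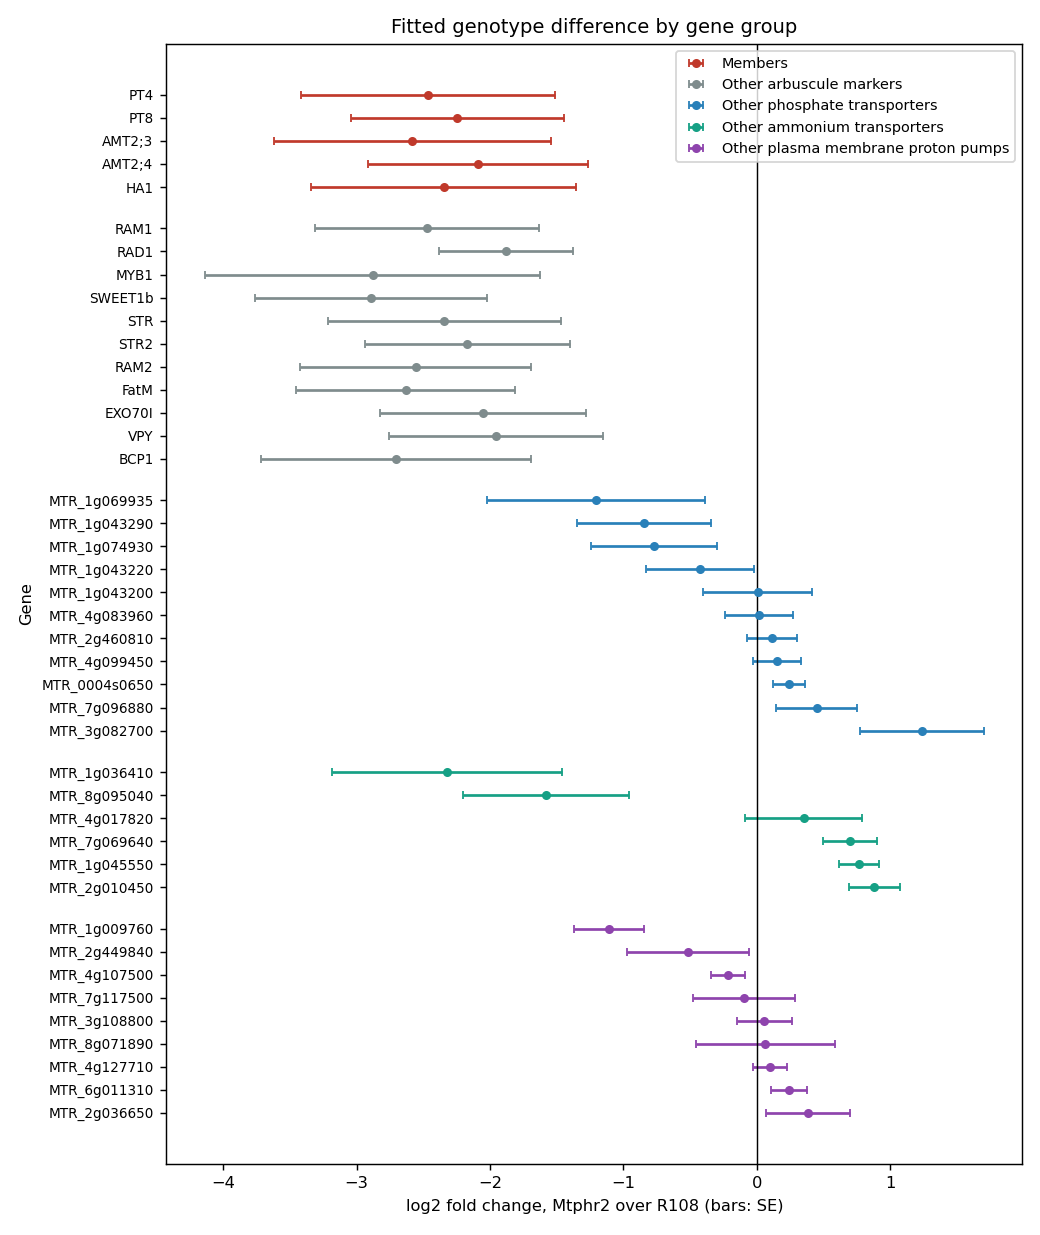
Fitted log2 fold change of Mtphr2 over R108 with its SE for the 5 members, 11 other arbuscule markers and the tested relatives of each transporter family (the phosphate group includes 3 glycerol-3-phosphate transporters). Members lie between -2.58 and -2.09, and proton pumps other than HA1 between -1.11 and 0.38.

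To compare whole profiles, the log2 CPM of each gene over the 6 libraries was centred on its own mean. The root-mean-square (RMS) difference between 2 genes then measures how unlike their profiles are, and is 0 for identical ones. Among the members, PT8 and AMT2;3 were the closest pair at 0.31, PT4 and HA1 stood at 0.33, and PT4 and AMT2;4 were the farthest apart at 0.81. The log2 values carry the prior count of 2, which shrinks differences at low counts. AMT2;3 had 2 to 100 counts per library, so its distances, and which pair is closest, depend on that prior count. Of the 11 markers, RAM2, which makes a lipid precursor for the fungus, was closest to PT4 (0.148), and the lipid transporter gene STR was closest to HA1 (0.165). VPY, needed for fungal entry into cells, was closest to PT8 (0.242) and AMT2;3 (0.296), and the sugar transporter gene SWEET1b was closest to AMT2;4 (0.398).

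Among 15252 annotated genes with a mean of at least 5 CPM and a functional description, the 3 closest to PT4 were a putative replication factor C gene MTR_5g020810 (RMS 0.053), a germin-like protein gene MTR_2g086630 (0.091) and a peptide/nitrate transporter gene MTR_2g017750 (0.126). The median gene lay at 1.87. MTR_5g020810 had 24.8, 2.16 and 5.62 CPM in Mtphr2 replicates 1 to 3 and 107, 53.8 and 24.3 CPM in R108 replicates 1 to 3, which is the profile of PT4 at a lower level. Closest to HA1 were MTR_8g103227, a ubiquitin ligase gene annotated as LIN-like (0.112), the ABC transporter gene MTR_8g022270 (0.118) and the oxidoreductase gene MTR_3g009880 (0.138). Closest to AMT2;4 were MTR_7g102870, an N-acetyltransferase-like gene (0.070), the lectin gene MTR_5g031090 (0.137) and the serine carboxypeptidase gene MTR_3g079620 (0.147).

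AMT2;3 was closest to MTR_8g036050, which encodes an enzyme of lysine synthesis (0.174), then to MTR_3g086890, a myosin-related protein gene (0.215), and the subtilisin-like protease gene MTR_5g011320 (0.237). PT8 was closest to VPY (0.242), then to MTR_4g005230, a cytochrome P450 gene (0.247), and to STR2 (0.250). Of these 15 genes 2 were already among the arbuscule markers. Their log2 fold changes ran from -2.51 to -1.92, with adjusted p of 0.266 to 0.338 by edgeR and of 0.0643 or more by DESeq2. These distances describe 6 libraries in which the genotype difference and the spread between libraries are mixed. Those of AMT2;3 also depend on the prior count.

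**Figure D5:**
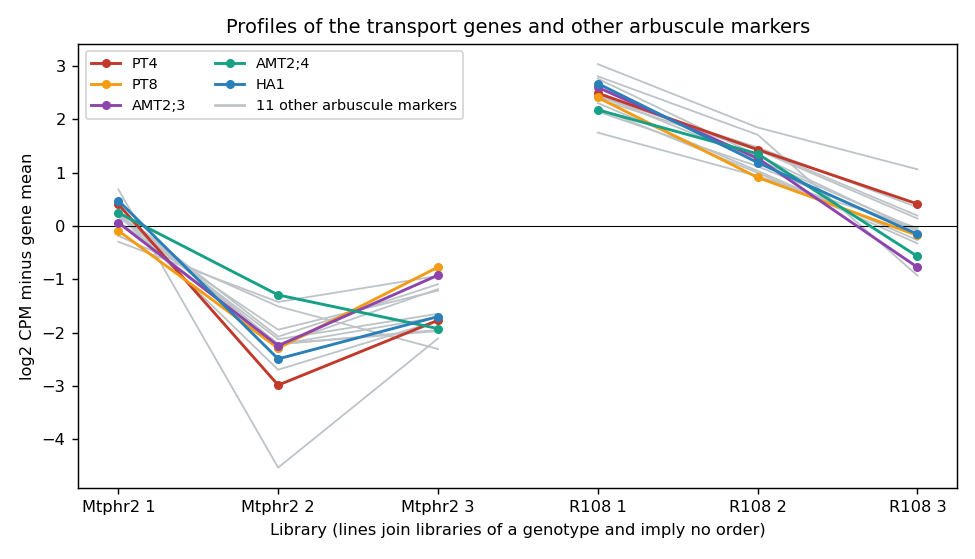
Centred log2 CPM of the 5 members (colours) and 11 other arbuscule markers (grey) in each library, Mtphr2 on the left. All 5 members are highest in R108 replicate 1, and 4 of the 5 are lowest in Mtphr2 replicate 2, AMT2;4 being lowest in Mtphr2 replicate 3.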

How the data were processed

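The authors deposited estimated counts (expected counts, with 2 decimals) per locus for 6 libraries, with a transcript length. Per the labels' protocols, Illumina reads were mapped to Medicago truncatula genome version 4.0, and HISAT2, StringTie and DESeq2 are named in the submitters' processing notes. No source used here gives the tool versions or the counting program. All 30 values of the 5 members were whole within 0.005. Counts were rounded, filtered with filterByExpr (minimum count 10, minimum total 15), scaled by TMM (factors 0.955 to 1.02) and tested by quasi-likelihood in edgeR 4.0.16 (R 4.3.3), with calls at a Benjamini-Hochberg adjusted p under 0.05. The SE of a log2 fold change is its size divided by the square root of the F statistic. DESeq2 1.42.0, limma 3.58.1 (voom), other scalings and filters, the replicate block and leaving out each library were alternatives. Log2 CPM used a prior count of 2. Permutation tests used scipy 1.17.1, and scripts were tested on simulated data. Deposited lengths are multiples of 3 for 68.2% of annotated genes, so some hold coding sequence only, and levels per length are approximate.

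Named genes are the members, the other arbuscule markers, the 2 most abundant relatives per family and the 3 closest profiles per member; others are marked. Members and lists were chosen with earlier results of these data known. Deviations from the genotype means correlated across genes at 0.377, 0.151 and 0.168 for the 3 same-numbered pairs. The others lay at -0.31 to 0.187, and the 0.187, for Mtphr2 replicate 2 with R108 replicate 3, is above 0.151 and 0.168. These values do not settle whether the titles' numbers pair libraries. The main edgeR test took the libraries as unpaired, and the replicate block was an alternative. Libraries of a genotype differed by a chi-square per degree of freedom of 23.8 to 49.3 and are not duplicates. RefSeq gene order on another assembly gave neighbours only. Sequences were not used here.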

Additional observations from a re-analysis of the deposited data

How the results depend on the processing

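The 5 members had lower fitted levels in Mtphr2 under every alternative run: 13 for each gene and 12 for AMT2;3, which has too few counts for a filter at a mean of 10 CPM. The call changed only for PT8 with DESeq2 (log2 fold change -2.26, adjusted p = 0.0317), which made 1 member called. Leaving out any 1 library gave log2 fold changes of -3.94 to -1.79 for PT4, -2.80 to -1.28 for PT8, -3.46 to -1.52 for AMT2;3, -2.997 to -1.41 for AMT2;4 and -3.71 to -1.35 for HA1, with 0 members called. The lowest values came without Mtphr2 replicate 1 and those nearest 0 without R108 replicate 1, and adjusted p from edgeR stayed between 0.128 and 0.566. Replicate block (pairing by number): adjusted p was 0.0926 for PT4, 0.142 for PT8, 0.209 for AMT2;3, 0.0650 for AMT2;4 and 0.0872 for HA1, and it called 1 other marker.

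Over all loci 18 were called, against 76 with the replicate block (in either direction), 1204 with DESeq2, 31 with limma-voom, 34 with no filter, 9 when loci needed a mean of 10 CPM, and 7 to 44 with 1 library left out (44 without Mtphr2 replicate 1, 7 without Mtphr2 replicate 2 or 3, and 8 without R108 replicate 2 or 3). DESeq2 called 1 phosphate transporter (PT8), 1 proton pump and 2 other markers lower, as it did 2.47% of loci. In the ammonium transporter family it called 2 loci higher, as it did 2.42% of loci. These were MTR_1g045550 and MTR_2g010450, the latter closest to the transcription factor bHLH25. In all 4 groups edgeR called 0. The ratio differences kept their sign, from 0.50 to 1.24 for PT8, 0.44 to 1.21 for AMT2;3, 0.30 to 1.23 for AMT2;4 and 0.24 to 0.62 for HA1 with 1 library left out. A paired exact permutation test of the ratios over the 3 same-numbered pairs, added after seeing the data, gave p = 0.25 for AMT2;4 and p = 0.5 for each of the others. The difference in the mean log2 CPM of the members was -2.30 (-3.001 to -1.64 with 1 library left out). AMT2;3 is limited by depth, at 2 to 100 counts per library.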

Other observations

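Gene order was taken from a RefSeq table of another assembly, and the 2 protein-coding genes on each side of each member give 20 neighbours, of which 16 were tested. This comparison was chosen after the data were examined. Their median log2 fold change was -0.02, with a range of -1.57 to 1.24, and the lowest adjusted p by edgeR was 0.147. Beside PT4, the plastid division gene MTR_1g028580 averaged 15.1 CPM in Mtphr2 and 15.5 CPM in R108. On the other side of PT4, the arabinogalactan peptide gene MTR_1g028610 averaged 6.57 CPM in Mtphr2 and 19.5 CPM in R108, the lowest log2 fold change of the 16 (-1.57, adjusted p = 0.361 by edgeR). The genes directly beside HA1, MTR_8g006785 and MTR_8g006800, had log2 fold changes of 0.31 and -0.01. Next to AMT2;4, the calcium-binding protein gene MTR_7g115070 averaged 19.3 CPM in Mtphr2 and 22.6 CPM in R108.

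The 11 elongation factor 1-alpha loci summed to 46.7 to 57.8 CPM in Mtphr2 libraries and 44.6 to 48.4 CPM in R108 libraries. The range of this sum over all 6 libraries was therefore small beside that of any member. Such genes are often used as a constant reference for root transcripts, but whether these loci are the ones so used was not tested. Of the 11, 6 had no count in any library. The 3 that were tested had higher fitted levels in Mtphr2, and 0 were called by edgeR or DESeq2. For 1 of them, MTR_8g008740, every Mtphr2 library was above every R108 library, as for 11.6% of tested loci (log2 fold change 0.20, adjusted p = 0.414 by edgeR).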
